A study of Mus musculus and Homo sapiens with 10 samples.

Results

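Genes of the meiotic chromosome were followed in mouse embryonic stem cells (mESCs) given vitamin C (vitC). The members were 10 genes chosen by symbol, *Sycp1*, *Sycp3*, *Stag3*, *Smc1b*, *Hormad1*, *Syce1*, *Syce2*, *Tex11*, *Tex101* and *Dmc1*, out of 25899 genes in the mESC table. All 10 were listed there, and the human symbols were all listed among 35720 genes in a table of human embryonic stem cells (hESCs). Of the 10 mouse genes, 9 lay above the lowest value in at least 4 of 8 libraries and could be tested, while *Tex101* did not. *Tex101*, which encodes a surface glycoprotein of germ cells, is the member that is not a chromosome protein.

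The study used RNA-seq to ask how a short exposure to vitC alters transcription in pluripotent cells. E14 mESCs in serum-free 2i media, which contain LIF and inhibitors of MEK and GSK3, were left untreated or given vitC at 100 µg/ml for 24 h, with 4 libraries in each group. Primed hESCs, labelled H9, in KSR/FGF media were treated in the same way, with 1 library in each group. The mESC libraries are labelled as total RNA and the hESC libraries as polyA RNA. The study's methods describe primed H9-NK2 cells, which carry inducible KLF2 and NANOG transgenes, in KSR/FGF media. They also describe primed H9 cells, in HFF-conditioned media. Which of these gave the hESC libraries was not settled here. Each species is represented by 1 established line, and control and vitC libraries with the same replicate number carry the same culture label.

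Meiosis builds a chromosome axis from cohesin rings that differ in some subunits from those of dividing somatic cells, and joins the homologous axes with the synaptonemal complex, a zipper of transverse filaments and a central element. The meiotic recombinase DMC1 repairs programmed DNA breaks on the homologue. In mESCs many of these genes are held low by repressors that bind E-box and E2F-type motifs (MGA with MAX, and E2F6, in a Polycomb complex). At many CpG-rich promoters DNA methylation also holds them low. TET enzymes, for which vitC is a cofactor, oxidise this methylation in a pathway for its removal.

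Promoter sequences are shown for *Hormad1* and *Syce1*, which were higher with vitC in every pair and differ in their motifs. *Smc1b*, with few reads, was also higher in every pair and is not shown. The sequence is also given for *Sycp3*, whose replicates 1 and 2 stood apart from replicates 3 and 4. Each run holds the 250 bases before the RefSeq transcription start in GRCm38.p6, on the gene's strand, with E-boxes (CACGTG) and E2F-type motifs (GCGGGA or its reverse complement TCCCGC) in capitals.
Hormad1 (chr3:95559427-95559676, plus strand): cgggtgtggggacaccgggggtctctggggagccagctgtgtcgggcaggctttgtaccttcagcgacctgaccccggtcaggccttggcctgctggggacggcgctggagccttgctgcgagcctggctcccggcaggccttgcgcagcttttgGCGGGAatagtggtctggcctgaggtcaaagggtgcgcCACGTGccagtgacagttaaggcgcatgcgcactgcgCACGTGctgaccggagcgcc
Syce1 (chr7:140787855-140788104, minus strand): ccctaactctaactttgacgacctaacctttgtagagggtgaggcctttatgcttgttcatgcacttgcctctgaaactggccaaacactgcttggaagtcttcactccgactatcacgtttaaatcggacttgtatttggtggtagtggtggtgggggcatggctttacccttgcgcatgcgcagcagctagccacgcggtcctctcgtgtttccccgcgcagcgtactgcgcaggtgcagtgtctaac
Sycp3 (chr10:88459337-88459586, plus strand): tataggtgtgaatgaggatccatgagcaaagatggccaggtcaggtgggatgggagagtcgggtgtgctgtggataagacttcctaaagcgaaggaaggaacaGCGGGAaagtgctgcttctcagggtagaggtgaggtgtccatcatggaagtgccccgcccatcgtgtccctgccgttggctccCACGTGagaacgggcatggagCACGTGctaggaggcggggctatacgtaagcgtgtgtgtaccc

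In the *Hormad1* window the E-boxes began 57 and 20 bases before the start and the E2F-type motif 95 bases before it. In the *Sycp3* window the E-boxes began 64 and 43 bases before the start and the E2F-type motif 147 bases before it. Of the *Syce2* windows, the first held the E2F-type motif alone, 115 bases before the start, while the window before a second listed start held an E-box at 88 bases and an E2F-type motif at 34. The *Syce1* window held neither motif. *Hormad1* and *Syce1* thus differed in these letters.

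RefSeq windows were given for 9 of the 10 members, in 11 windows. Of these 9 genes, 5 held an E-box (*Hormad1*, *Sycp1*, *Stag3*, *Syce2* and *Sycp3*), 5 held the E2F-type motif (*Hormad1*, *Syce2*, *Sycp3*, *Dmc1* and *Smc1b*), and 3 held both. *Syce1* and *Tex101* held neither. Counted by window, 6 of the 11 held an E-box, 7 the E2F-type motif and 4 both. The 2 *Hormad1* windows overlap, as do the 2 *Syce2* windows. Over all 32851 windows of this length, searched on both strands and counted by window, 6.02% held an E-box, 16.9% the E2F-type motif and 1.45% both. The member windows held 11 to 26 CpGs against a median of 6 over all windows, and among the 11685 windows with at least 11 CpGs the shares were 9.61%, 38.6% and 3.71%. These matches are descriptions of the letters, and binding was not measured here.

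**Figure D1:**
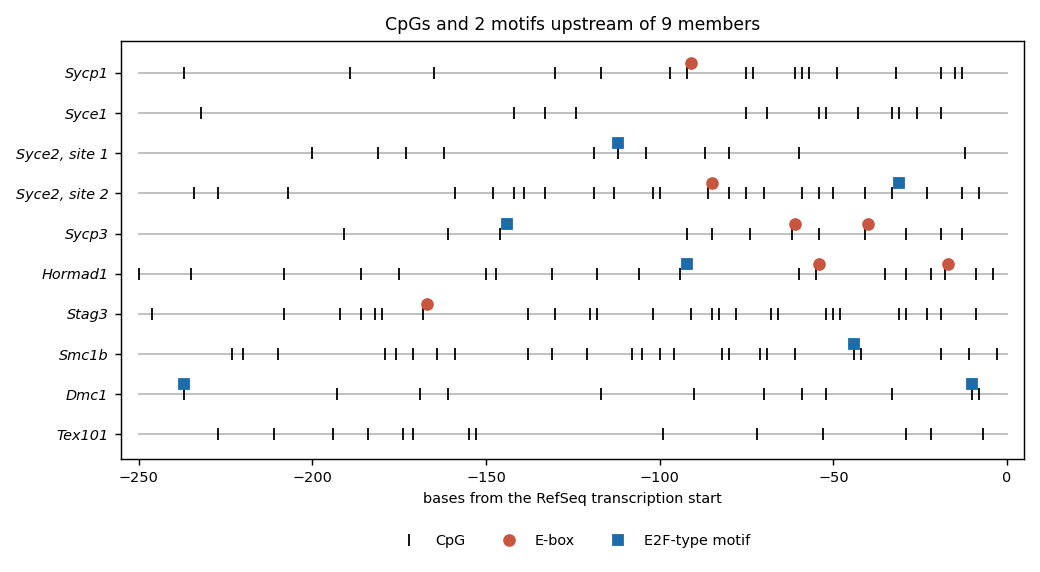
Positions of CpGs (ticks), E-boxes (circles) and E2F-type motifs (squares) in the 250 bases before the RefSeq start of 9 members, with distance from the start in bases on the x axis. One of the 2 Hormad1 windows, whose starts lie next to each other, is drawn, and Syce1 and Tex101 carry neither motif.

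Gene values were deposited on a variance-stabilised, log2-like scale, which compresses differences at low counts, and whole reads were recovered from it. Levels (RPM) are reads of a gene per 1000000 recovered gene reads of its library. Depth was 4489804 to 6921305 gene reads in control and 3354852 to 5826923 in vitC mESC libraries, and 15367652 and 17188555 in the hESC libraries. Replicates 1 and 2 stood apart from replicates 3 and 4 on the component that held 61.9% of the variance over genes, and ribosomal RNA repeats took 42.0% to 51.5% of the deposited repeat counts in the former and 60.0% to 63.1% in the latter. All 10 pluripotency markers were read in mESCs, with a sum of 5347 to 5979 RPM. In the paired fit (limma with the replicate number as a block, adjusted p under 0.05) *Nanog*, *Pou5f1*, *Klf2* and *Zfp42* were lower with vitC and *Tfcp2l1* was higher. That fit called 10.8% of all genes, 6.36% higher and 4.44% lower. In the unpaired limma fit 0 of the 10 passed, with 1 at an unadjusted p under 0.05. On recovered reads with the block, edgeR called 1 of the 10 higher and 4 lower, where 14.5% of all genes were called. DESeq2 with the block called 1, lower with vitC, where 3.36% of all genes were called. *Nanog* went from 476 ± 19.7 to 393 ± 37.3 RPM (SD, n = 4), with no overlap between the groups (paired limma adjusted p = 0.000647). Of 10 later germ cell markers, *Prm1*, *Prm2*, *Tnp1*, *Tnp2*, *Acrv1*, *Pgk2* and *Gdf9* had 0 reads in all 8 libraries. The list summed to 22.2 to 24.9 RPM in control and 25.1 to 33.7 with vitC, ranges that nearly met without overlap. These sums rest on *Ddx4*, *Ldhc* and *Zp3*, each of which overlapped between the groups. Sums for primitive endoderm (3.12 to 7.08 RPM in control, 4.77 to 11.6 with vitC), fibroblast (5.20 to 16.8 and 9.61 to 14.4) and trophoblast markers (56.9 to 74.8 and 65.1 to 86.7) overlapped between the groups. In the paired fit 1 of 6 tested endoderm markers, *Pdgfra*, and 1 of 5 tested trophoblast markers, *Tfap2c*, were higher with vitC, while 0 of 3 tested germ cell and 0 of 3 tested fibroblast markers passed, with 1 and 2 at an unadjusted p under 0.05 (limma). *Tfap2c*, also known in primordial germ cells, went from 48.3 ± 2.02 to 61.6 ± 4.10 RPM with no overlap (paired limma adjusted p = 0.000922), and the part of these markers in the results was not tested. In bulk libraries, fewer cells with a transcript and less transcript per cell cannot be told apart.

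The members were transcribed at low levels. They took 3585 reads over the 8 mESC libraries, and *Stag3* (1100 reads, 30.7%), *Syce2* (876, 24.4%), *Syce1* (691, 19.3%) and *Sycp3* (335, 9.34%) held 83.7% of them. *Tex11* had 207 reads, *Hormad1* 198, *Dmc1* 104, *Smc1b* 44, *Sycp1* 22 and *Tex101* 8. The members summed to 70.3 to 93.3 RPM in control and 79.6 to 99.1 with vitC, so the sums overlapped.

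Per kilobase of exon, the control levels (RPKM from recovered reads) fell into 3 steps. *Syce2*, a central element protein, stood at 11.9 ± 1.87 (SD, n = 4), *Syce1*, of the same element, at 9.38 ± 1.95, *Sycp3*, of the axis, at 5.79 ± 2.79 and *Stag3*, a meiotic cohesin subunit, at 4.60 ± 1.07, and the ranges of neighbours in this order overlapped. The next step held *Hormad1*, an axis protein, at 1.86 ± 0.650, *Tex11*, which acts in synapsis and crossover formation, at 1.28 ± 0.216 and *Dmc1* at 1.20 ± 0.670, again with overlapping neighbours, and the lowest *Stag3* library (3.65) lay above the highest *Hormad1* library (2.72). The last step held *Smc1b*, a meiotic cohesin subunit, at 0.187 ± 0.0512, *Sycp1*, the transverse filament, at 0.0736 ± 0.0965 and *Tex101* at 0.0218 ± 0.0436. The lowest *Dmc1* library (0.633) lay above the highest *Smc1b* library (0.240). With vitC the order of the leading members changed, *Syce1* at 13.2 ± 2.59 and *Syce2* at 9.16 ± 1.48, with ranges that still overlapped. The steps were not apart with vitC. There the highest *Hormad1* library (5.39) lay above the lowest *Stag3* library (3.12), and the highest *Smc1b* library (0.521) above the lowest *Dmc1* library (0.459).

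Beside their mitotic paralogs, the cohesin members ranged widely. Per length, *Stag3* reached 27.5% ± 9.02 of *Stag1* and 26.6% ± 8.81 of *Stag2* (SD over 8 libraries), whereas *Smc1b* reached 0.984% ± 0.541 of *Smc1a*. For *Stag3* over *Stag1* the share was 27.5% ± 8.22 in control and 27.6% ± 11.1 with vitC (SD, n = 4). For *Smc1b* over *Smc1a* it was 0.682% ± 0.230 and 1.29% ± 0.622, with ranges of 0.492% to 0.975% and 0.938% to 2.22% that overlapped.

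**Figure D2:**
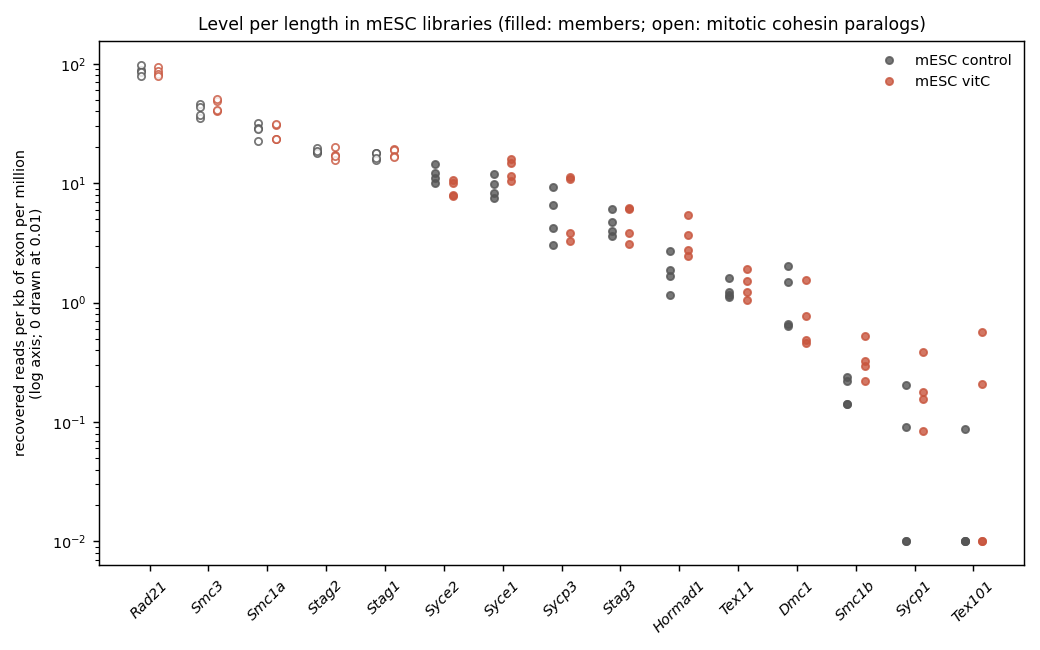
Level per length in RPKM from recovered reads (log axis) in each of 4 control (grey) and 4 vitC (red) mESC libraries, for the members (filled) and 5 mitotic cohesin paralogs (open), ordered by control mean. All paralog means lie above all member means in control, Stag1 at 17.0 and Syce2 at 11.9 being the nearest. The paralogs drawn include Smc3, a subunit shared by mitotic and meiotic rings.

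The comparison of vitC with control asked which members responded within 24 h. Without a term for the culture, 0 of 9 members passed an adjusted p of 0.05 (limma, Benjamini-Hochberg over 14631 genes), where 0.342% of all genes did, and 3 members had an unadjusted p under 0.05. On recovered reads, unpaired fits by edgeR (0.319% of genes called) and DESeq2 (0.67%) also called 0 members, with 3 at an unadjusted p under 0.05 in each. With the culture pair as a block, 2 members rose, *Hormad1* and *Syce1*, and 1 fell, *Syce2*, where 10.8% of all genes were called, 6.36% higher and 4.44% lower. The same 3 of 6 members tested were called by edgeR with the block on recovered reads, where 14.5% of genes were called, 8.19% higher and 6.29% lower. DESeq2 with the block called 0 of 9 members, with 3 at an unadjusted p under 0.05, where 3.36% of genes were called. The median difference over the 9 tested members was 0.10 on the variance-stabilised scale, against -0.0020 over all genes. A p that misses the threshold does not show that a member was unaltered.

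Among axis proteins, *Hormad1*, which marks unsynapsed chromosomes and lies on chr3:95559677-95587671 in GRCm38, had the largest relative difference of the called members. Its levels were 4.70, 3.28, 2.00 and 2.89 RPM in control replicates 1 to 4 and 9.32, 6.35, 4.77 and 4.22 with vitC. Every vitC library lay above its own control and the vitC group ran higher, although vitC replicate 4 lay below control replicate 1. The means were 3.22 ± 1.12 and 6.16 ± 2.29 RPM (SD, n = 4), a ratio of 1.92, from 9 to 50 reads per library. The difference on the variance-stabilised scale was 0.26 (standard error 0.093 unpaired and 0.061 paired), with a limma adjusted p of 0.519 unpaired and 0.00935 in the paired fit. On recovered reads the paired log2 fold change was 0.92 (edgeR adjusted p = 0.00385). The paired call was lost with DESeq2 (adjusted p = 0.220) and without replicate 1 (limma adjusted p = 0.0669).

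*Sycp3*, the lateral element protein that lies along the axis, did not pass in either fit. Its levels were 5.35, 3.85, 8.24 and 11.8 RPM in control replicates 1 to 4 and 4.85, 4.12, 14.3 and 13.7 with vitC. The split was by replicate set, not treatment. Replicates 1 and 2 lay at 3.85 to 5.35 RPM and replicates 3 and 4 at 8.24 to 14.3, a ratio of means of 2.65 with no overlap. The labels do not say what set these replicates apart. The ribosomal share above moved with the same split, and its part was not tested. Between treatments the ratio was 1.26, with a difference of 0.10 (95% interval -0.031 to 0.24 paired, limma adjusted p = 0.343). *Sycp3* shares 660 exonic bases with *Chpt1* on the opposite strand, and whether the counting used strand is not given in the sources used here. *Chpt1* had 48 to 87 reads per library, at 9.44 to 12.3 RPM in replicates 1 and 2 and 10.1 to 14.9 in replicates 3 and 4, which overlapped.

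In the central element, *Syce1* and *Syce2* moved in opposite directions in the paired fit. *Syce1* (chr7:140777229-140787852) had 17.35, 10.98, 14.48 and 11.99 RPM in control replicates 1 to 4 and 23.31, 21.45, 16.69 and 15.39 with vitC. All 4 pairs were higher with vitC, the groups overlapped, and the ratio within a pair ran from 1.15 in replicate 3 to 1.95 in replicate 2. The means were 13.7 ± 2.84 and 19.2 ± 3.78 RPM (SD, n = 4), a ratio of 1.40. The difference was 0.24 (standard error 0.091 unpaired and 0.060 paired), with a limma adjusted p of 0.550 unpaired and 0.0142 paired. The paired call was lost without replicate 1 (limma adjusted p = 0.0573), without replicate 2 (0.116) and with DESeq2 (0.236).

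*Syce2* (chr8:84872111-84888221) had 19.8, 21.6, 23.8 and 28.3 RPM in control replicates 1 to 4 and 15.5, 15.6, 21.2 and 19.8 with vitC. All 4 pairs were lower with vitC, although vitC replicates 3 and 4 reached the control range. The means were 23.4 ± 3.68 and 18.0 ± 2.91 RPM (SD, n = 4), a ratio of 0.771. The difference was -0.19 (standard error 0.080 unpaired and 0.052 paired), with a limma adjusted p of 0.613 unpaired and 0.0240 paired. The paired call was lost without replicate 1 (limma adjusted p = 0.0684), 2 (0.0728) or 4 (0.140) and with DESeq2 (0.402). *Gcdh*, a mitochondrial dehydrogenase gene on the opposite strand that overlaps *Syce2* without shared exonic bases, went the other way, at 45.1 ± 3.89 RPM in control and 55.7 ± 2.74 with vitC (SD, n = 4, paired limma adjusted p = 0.00452).

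The transverse filament gene *Sycp1* was close to the limit of detection. Its reads were 2, 0, 0 and 5 in control replicates 1 to 4 and 3, 8, 1 and 3 with vitC, and 3 of 4 pairs were higher. The difference of 0.18 (95% interval 0.015 to 0.35 paired) did not pass, with a limma adjusted p of 0.157 paired, and no ratio is read from so few reads.

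The meiotic cohesin subunits did not pass in either fit. *Stag3* had 20.9, 22.7, 34.7 and 27.0 RPM in control replicates 1 to 4 and 17.9, 21.8, 35.2 and 35.6 with vitC. As with *Sycp3*, the libraries parted by replicate set, with replicates 1 and 2 at 17.9 to 22.7 and replicates 3 and 4 at 27.0 to 35.6, a ratio of means of 1.59. The difference with vitC was 0.032 (95% interval -0.087 to 0.15 paired, limma adjusted p = 0.782). *Smc1b* had 6, 3, 4 and 4 reads in control replicates 1 to 4 and 7, 7, 3 and 10 with vitC, at 0.755 ± 0.207 and 1.38 ± 0.518 RPM (SD, n = 4). All 4 *Smc1b* pairs were higher in RPM, by 1.00 to 3.65 times, with a difference of 0.12 (95% interval -0.027 to 0.26 paired, limma adjusted p = 0.313).

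Of the recombination genes, *Dmc1* and *Tex11* did not pass in either fit. *Dmc1* had 10, 8, 22 and 25 reads in control replicates 1 to 4 and 6, 11, 4 and 18 with vitC, at 2.92 ± 1.63 and 2.00 ± 1.25 RPM (SD, n = 4). Replicate 3 alone fell far, from 4.90 to 1.19 RPM, while 2 of 4 pairs were higher, and the difference was -0.11 (95% interval -0.27 to 0.050 paired, limma adjusted p = 0.406). *Tex11* had 25, 30, 19 and 31 reads in control and 37, 32, 15 and 18 with vitC, with a difference of 0.044 (95% interval -0.088 to 0.18 paired, limma adjusted p = 0.722). *Tex101* had 1 read in the 4 control libraries, in replicate 4, and 5, 2, 0 and 0 reads with vitC, and was below the filter.

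**Figure D3:**
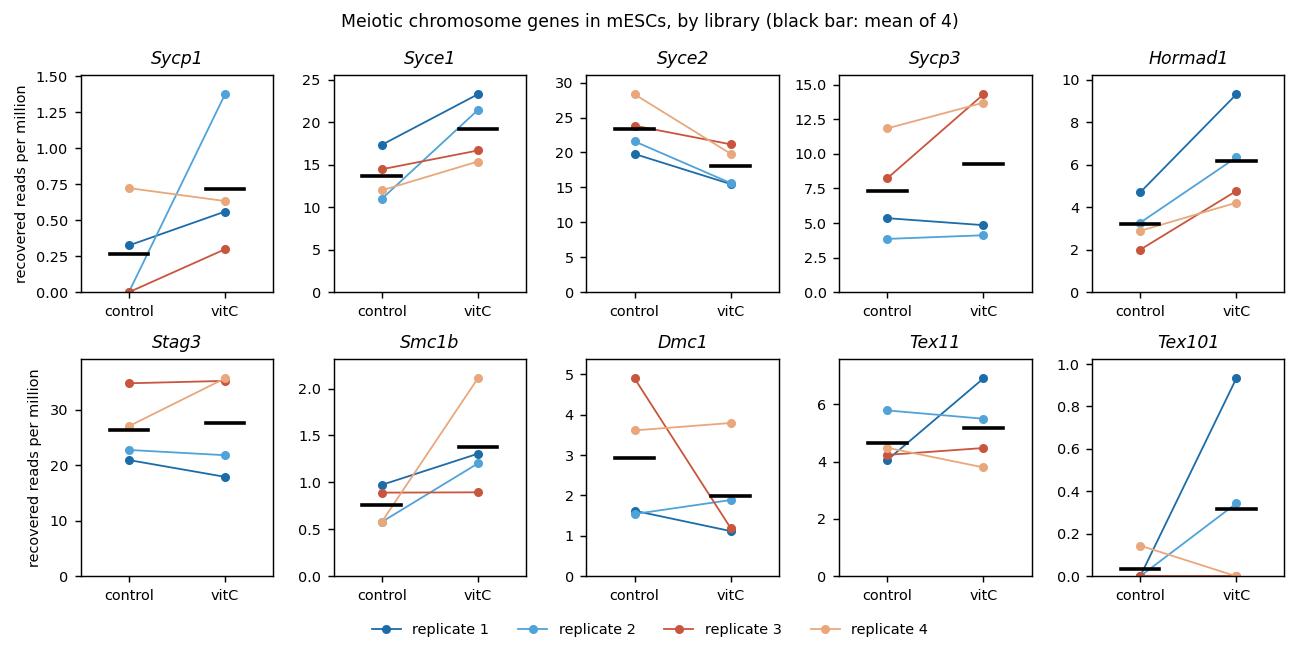
RPM of the 10 members in control and vitC mESC libraries, with a line joining the 2 libraries of each culture and a black bar at the mean of 4. Hormad1 and Syce1 rise along all 4 lines, Syce2 falls along all 4, and Sycp3 and Stag3 separate replicates 3 and 4 from replicates 1 and 2 in both treatments.

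In RPM, 3 of the 9 tested members (*Hormad1*, *Syce1* and *Smc1b*) were higher with vitC in 4 of 4 pairs, as were 14.2% of all genes tested, and 1 (*Syce2*) was lower in 4 of 4, as were 15.7%. For 0 members were the 4 vitC libraries all above or all below the 4 control libraries, where 3.12% of genes were apart upwards and 2.24% downwards. *Sycp3* and *Stag3* were the 2 of 9 members whose replicates 3 and 4 lay apart from replicates 1 and 2, both upwards. Of all genes tested 32.3% were apart in this way, 16.3% upwards and 16.0% downwards, so such a split was common and is no result about the members. No member passed a test that the vitC effect differed between the sets (limma interaction, 0 of 9, where 0.0% of genes passed), with 2 pairs in each set and a 95% interval of -0.056 to 0.45 for *Stag3*.

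A wider list of 50 genes of meiosis held 47 genes in the mESC table, 7 of which had 0 reads in all libraries, and 35 could be tested. Without the block 0 of 35 passed, with 3 at an unadjusted p under 0.05 (limma), and edgeR and DESeq2 without the block also called 0, with 1 and 2 at an unadjusted p under 0.05. With the block 5 rose and 0 fell, beside the 6.36% and 4.44% of all genes, and the median difference was 0.088 over the 35 against -0.0020 over all genes. With edgeR and the block 3 of 21 rose and 0 fell, where 8.19% of all genes rose, and with DESeq2 and the block 1 of 33 passed, where 3.36% of all genes did. The 5 were *Tex15*, *Shoc1*, *Terb2*, *Rec114* and *Mael*. Each was higher with vitC in 4 of 4 pairs, which is no separate result, since the paired fit that picked them favours genes whose pairs agree.

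*Tex15*, which acts in recombination and in piRNA-directed silencing, had 89.5, 77.7, 41.4 and 46.1 RPM in control replicates 1 to 4 and 110, 96.3, 55.1 and 53.8 with vitC. Replicates 1 and 2 lay far above replicates 3 and 4, so the groups overlapped, but each pair rose, by 1.17 to 1.33 times. Its difference was 0.24 (standard error 0.044 paired, limma adjusted p = 0.00161 paired and 0.879 unpaired), and it was the gene called by DESeq2 with the block (adjusted p = 0.0488). *Shoc1*, a crossover factor, went from 1.13 ± 0.432 to 2.75 ± 0.762 RPM (SD, n = 4, 26 and 55 reads, paired limma adjusted p = 0.0217). *Terb2*, which ties telomeres to the nuclear envelope, went from 1.15 ± 0.612 to 2.75 ± 0.581 RPM (26 and 52 reads, paired limma adjusted p = 0.0361). Both genes had few reads, and *Shoc1* lost its call when any 1 culture pair was left out and *Terb2* without replicate 1, 3 or 4.

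*Rec114*, which is needed to make DNA breaks, went from 18.0 ± 4.39 to 22.5 ± 2.44 RPM (SD, n = 4, paired limma adjusted p = 0.0385). *Mael*, of the piRNA pathway, went from 1.68 ± 0.918 to 3.57 ± 1.98 RPM (37 and 63 reads, paired limma adjusted p = 0.0451). *Rec114* and *Mael* were near the threshold, and each lost its call without replicate 1, 3 or 4.

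The 3 genes of this list with the most reads act in dividing cells too and did not pass. *Sgo2a*, a protector of centromeric cohesin, had 172 ± 11.6 and 168 ± 19.4 RPM (SD, n = 4), *Trip13*, an ATPase that remodels HORMA proteins, 91.8 ± 3.64 and 83.6 ± 5.62, and *Mlh3*, of mismatch repair, 75.9 ± 7.61 and 72.3 ± 6.36. Their paired limma adjusted p values were 0.764, 0.194 and 0.614.

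The mitotic cohesin paralogs were set beside the members for the same comparison. Without the block 0 of 5 passed, with 0 at an unadjusted p under 0.05 (limma), and edgeR and DESeq2 without the block called 0, also with 0 at that p. With the block 1 of 5 passed, where 10.8% of all genes did. It was *Smc3*, a core cohesin subunit shared by mitotic and meiotic rings, and so no paralog of a member though counted in this list. *Smc3* went from 226 ± 28.1 to 251 ± 28.7 RPM (SD, n = 4), higher in 4 of 4 pairs, with a difference of 0.15 (standard error 0.038 paired, limma adjusted p = 0.0136), which was lost without replicate 2 (0.0681) or 3 (0.0578) and with DESeq2 (0.118). *Stag1* (0.080), *Stag2* (-0.065), *Smc1a* (-0.020) and *Rad21* (-0.026) did not pass in either fit.

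**Figure D4:**
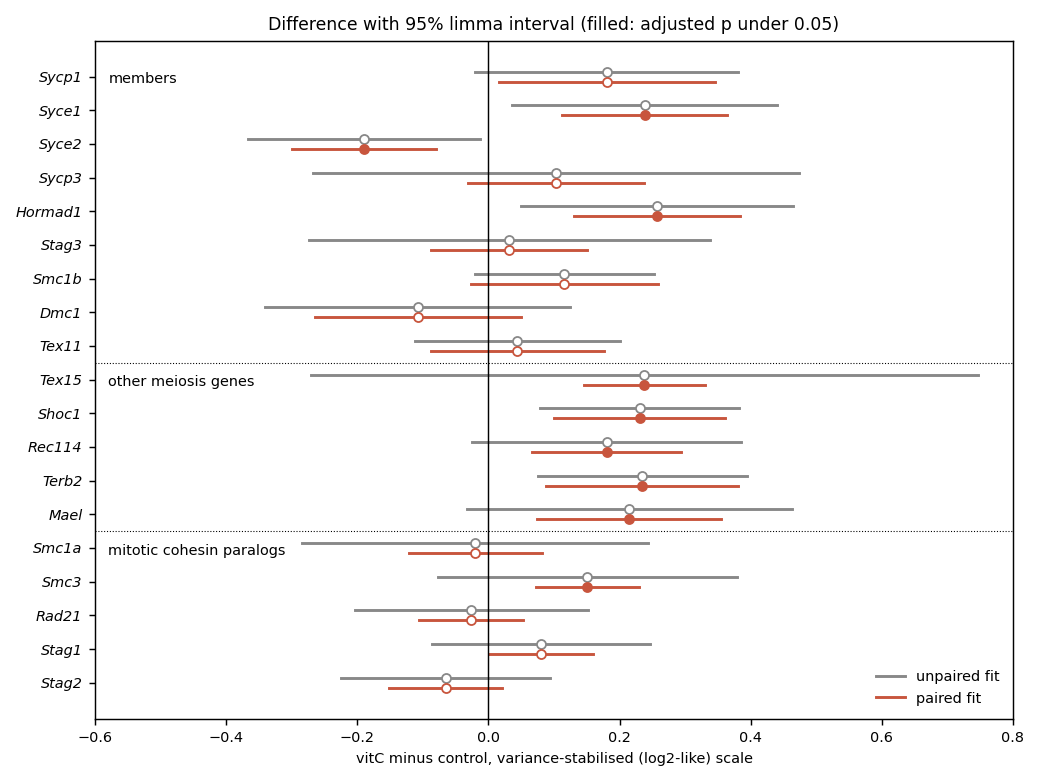
Difference of vitC minus control on the variance-stabilised scale, with 95% limma intervals from the unpaired (grey) and paired (red) fits, for 9 members, the 5 other meiosis genes called in the paired fit and 5 mitotic cohesin paralogs. Filled points (adjusted p under 0.05) occur in the paired fit alone, for Syce1, Syce2, Hormad1, the 5 other meiosis genes and Smc3. Smc3, drawn with the paralogs, is shared by mitotic and meiotic rings.

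For the 3 members with the most reads, the genes most alike across the 8 libraries were found by Pearson correlation on the deposited scale, as a description of libraries that share cultures and treatments. The nearest to *Stag3* were *Nup85* (0.984), *Exosc5* (0.984) and *Cars* (0.979). The nearest to *Syce2* were *S100a10* (0.991), *Cgn* (0.987) and *Pnma5* (0.987), and the nearest to *Syce1* were *Clu* (0.985), *Gatm* (0.974) and *Ceacam10* (0.955). *Gatm* had 16 reads in all and *Ceacam10* 60, so their likeness rests on few reads.

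In hESCs the members other than *DMC1* had at most 16 reads in a library. *DMC1* had 52 reads in control and 61 with vitC, at 3.38 RPM (exact Poisson 95% limits 2.53 to 4.44) and 3.55 (2.71 to 4.56). The log2 ratio of vitC to control was 0.069, with a 95% interval from -0.49 to 0.63 that covers counting error only. *STAG3* had 12 and 16 reads, a log2 ratio of 0.25 (-0.92 to 1.47), and its human reads are uncertain because related copies exist. *SYCE2* had 7 and 16 reads, a log2 ratio of 1.03 (-0.33 to 2.55).

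No test was possible with a single library of each kind, and no difference was detectable for these 3 genes at this depth. Of the 3 members with at least 10 reads over both libraries, 1 (*SYCE2*) differed by at least 1.5 times, where 13.5% of such genes did. *SMC1B* had 9 reads in the control and 0 with vitC, and the upper end of the exact 95% interval of its log2 ratio, counting error only, was -1.14. *SYCP3* had 2 and 0 reads, *TEX11* 1 and 0 and *TEX101* 0 and 1. *SYCP1*, *HORMAD1* and *SYCE1* had 0 reads in both, which at a floor of 3 reads per library allows up to 0.195 RPM in control and 0.175 with vitC.

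The 2 members that rose in the paired mouse fit were thus not detected in hESCs. The mouse and human libraries differ in pluripotent state, labelled RNA type and species, which cannot be told apart. Per length, *STAG3* stood at 1.25% and 1.37% of *STAG1* in control and vitC hESCs, against 27.5% in mESCs.

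**Figure D5:**
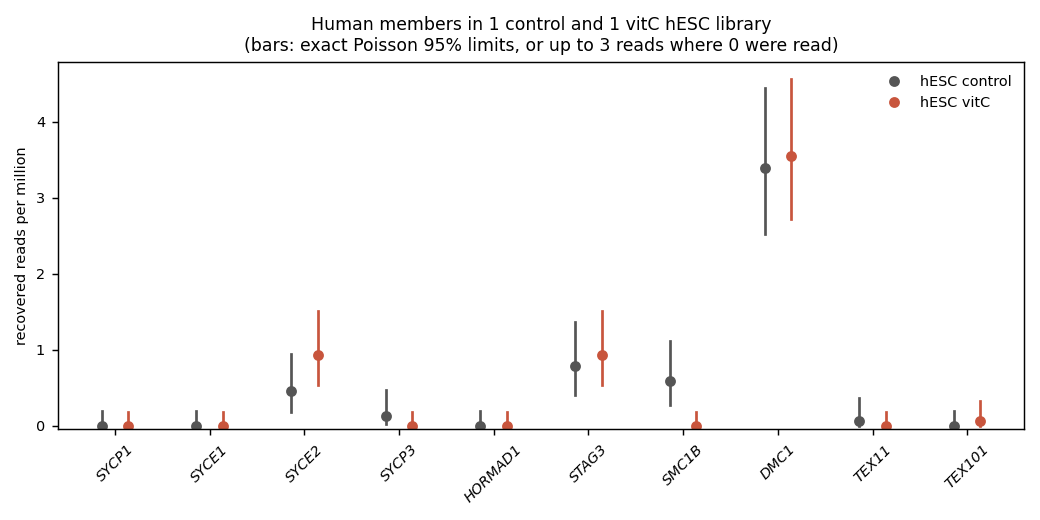
RPM of the 10 human members in the control (grey) and vitC (red) hESC library, with exact Poisson 95% limits, or a limit of 3 reads where 0 were read, which cover counting error only. DMC1 lies above 3 in both libraries, and the other members lie below 1.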

How the data were processed

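RNA-seq values of 8 mESC and 2 hESC libraries were used, and groups and replicate numbers were taken from the labels. Mapping (mm10 or hg38) and counting were done by the authors in SQuIRE. Trim Galore, HISAT2 and DESeq2 are named in the submitters' processing notes, and versions are not given in the sources used here. The deposited gene values are variance-stabilised, on a log2-like scale. The deposited repeat values are expected counts, used here unrounded for the ribosomal RNA share alone. A further 7 per-sample columns of the repeat tables were set aside. The labels give total RNA for mESC and polyA RNA for hESC libraries, and the protocol names kits for rRNA depletion and for mRNA isolation without tying either to a library.

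The variance-stabilising transformation was inverted, taking the smallest step in a library as 1 read, and 100% of 116385 mESC and 38034 hESC values above the lowest came out whole within 0.1 read. In the hESC libraries these reads came to 177% and 181% of the deposited aligned library size, and the cause was not tested, so hESC limits hold only if 1 step is 1 read. Intervals and floors cover counting error only. Exon lengths and gene positions came from GENCODE (GRCm38).

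The deposited values were tested with limma 3.58.1 (lmFit, then eBayes with trend) over genes that exceeded the table's minimum in 4 or more of 8 libraries, with Benjamini-Hochberg adjustment over all genes tested and a threshold of 0.05. The authors' methods name no term for the replicate, so the replicate block (called the paired fit) was an alternative. The numbers pair the libraries: libraries of 1 number share a culture label in both treatments, and after subtraction of group means they correlated over genes at 0.626 to 0.765. Differently numbered libraries correlated at 0.574 to 0.665 within replicates 1 and 2 or 3 and 4, and at -0.709 to -0.546 between these sets, and each library correlated best with its own number. Whether cultures were grown separately is not stated, so p-values measure the spread between these libraries. edgeR 4.0.16 (quasi-likelihood) and DESeq2 1.42.0 were run on recovered reads in R 4.3.3, and limma and edgeR were first tested on simulated data. edgeR tested 6 members, since its filter removed the others.

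The members, lists and tests were chosen with earlier results of these data known. All members and mitotic cohesin paralogs are named, as are the other meiosis genes called in a limma fit, the 3 with the most reads, and the 3 genes most alike to each of the 3 members with the most reads. Of 50 listed meiosis genes, 29 matched by symbol, 10 by older symbol and 8 by synonym. A further result is not reported here.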

Additional observations from a re-analysis of the deposited data

Results flagged for a closer look

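Among 20 groups of 4 libraries tested for a library apart from the others, 1 stood out, and chance marks about 1 in 20. This was control replicate 4 for *Tex101*, at 6.28 on the deposited scale, where 1 read stood against 0 reads in the other control libraries. With those libraries tied at 0 reads, any read would be flagged, so that rate does not hold for this group.

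*Stag3* moved down with vitC in replicates 1 and 2 and up in replicates 3 and 4, by a difference of 0.20 on the variance-stabilised scale between the sets. The test of that difference did not pass (limma interaction, unadjusted p = 0.118, adjusted p = 1.00, 95% interval -0.056 to 0.45), with 2 pairs in each set. The pair differences were small in replicates 2 (-0.023) and 3 (0.020) beside those in replicates 1 (-0.11) and 4 (0.24). *Stag3* was the 1 of 9 members tested whose pairs parted in this way. The share of all genes that did so was not counted, so no result about the members is read from it.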

How the results depend on the processing

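Of the differences of single genes between vitC and control, 516 alternative values kept their direction and their side of the threshold, 48 moved past it, and 23 changed sign. The 516 include 2 hESC values each for *STAG3*, *SYCE2* and *DMC1*, which had no test and so kept their direction alone. The replicate block called 1 pluripotency marker higher and 4 lower, and 1 endoderm and 1 trophoblast marker higher, where the unpaired fit called 0. It raised the members called from 0 to 3, the other meiosis genes from 0 to 5 and the mitotic paralogs from 0 to 1 (*Smc3*). All genes called went from 50 to 1581. With edgeR and the block these counts were 3, 3, 1 and 1727, and with DESeq2 and the block 0, 1, 0 and 472. DESeq2 without the block called 111 genes in all, a filter on all 8 libraries left 28, replicates 1 and 2 alone gave 86, and leaving out 1 library gave 19 to 29 genes in all.

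Other alternatives were chosen after seeing the data. The block with no filter called 3 members, 4 other meiosis genes, 1 paralog and 1460 genes in all, and with quantile normalisation 3, 4, 1 and 1619. Leaving out 1 culture pair under the block called 0 to 3 members (1 without replicate 2, 3 without 3 and 2 without 4), 1 to 4 other meiosis genes, 0 or 1 paralog and 1000, 1275, 1323 and 995 genes in all without replicates 1 to 4. In hESCs 1 member passed 1.5 times on recovered reads and 0 on the deposited scale, which compresses low counts.

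Genes whose sign changed were not called in either limma fit. In replicates 1 and 2 alone the difference was -0.0048 for *Sycp3*, -0.067 for *Stag3* and 0.041 for *Smc1a*, and in replicates 3 and 4 alone it was -0.018 for *Tex11* and 0.035 for *Sgo2a*. Leaving out 1 library gave -0.048 to 0.14 for *Stag3*, -0.0014 to 0.084 for *Tex11*, -0.11 to 0.041 for *Smc1a*, -0.073 to 0.028 for *Rad21* and -0.071 to 0.032 for *Sgo2a*. Under the block without replicate 4 it was -0.038 for *Stag3* and 0.049 for *Smc1a*, without replicate 1 it was -0.018 for *Tex11*, and without replicate 2 it was 0.012 for *Rad21* and 0.012 for *Sgo2a*. Apart from the limits stated, the cause of these shifts was not tested. The low reads of *Sycp1*, *Smc1b* and *Tex101* limit what could be detected.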

Other observations

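*Rec8*, the meiotic counterpart of the cohesin subunit *Rad21*, is named after its values were seen. It had 166, 123, 16 and 30 reads in control replicates 1 to 4 and 134, 157, 24 and 28 with vitC. It thus parted by replicate set in the direction opposite to *Stag3* and *Sycp3*, with 23.7 to 26.9 RPM in replicates 1 and 2 and 3.56 to 7.15 in replicates 3 and 4. With vitC the difference was 0.12 (limma adjusted p = 0.965 unpaired and 0.215 paired). Per length *Rec8* reached 1.41% to 10.5% of *Rad21* over the 8 mESC libraries, and 29.0% and 31.5% in the control and vitC hESC library.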
